A study of Caenorhabditis elegans with 2 samples.

Results

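All nuclear genes that the Ensembl annotation of assembly WBcel235 classes as long intergenic non-coding RNA (lincRNA) genes were examined for peaks of LIN-26::GFP. They were taken by that class alone, out of 46890 annotated nuclear genes. Of the lincRNA genes 169 carry a linc- name and 25 another name. A gene was said to have a peak when the summit, the point of strongest signal within a peak, lay inside the gene or within 500 bp of it. By this rule 20 lincRNA genes had a summit and 174 had none, and 26 of the 3187 nuclear summits lay at them. All of these genes also have a record in RefSeq, which classes every one as a long non-coding RNA gene.

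LincRNAs are transcripts longer than small RNAs that carry no recognised protein-coding frame and are encoded mainly between protein-coding genes. They are processed much like messenger RNAs, and the function of most of them in C. elegans is unknown. Genes for lincRNAs, like those for messenger RNAs, are read by RNA polymerase II, whereas tRNA genes are read by RNA polymerase III. LIN-26 is a zinc-finger protein of the worm that is needed for epidermal cells to take and keep their fate.

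The worms were whole young adults of strain RW12178, aged 64 hours and synchronised by starving larvae of the first stage after bleaching, and all tissues were present in the extract. Their lin-26 locus carries an inserted GFP together with a loxP-flanked unc-119(+) marker, in the background of the unc-119(tm4063) mutation. Chromatin immunoprecipitation with an antibody against GFP and sequencing (ChIP-seq) was done in 2 biological replicates of this 1 group, and no untagged or wild-type group was analysed here. The sex of the worms was not collected, per the labels, and the data do not say in which cells a peak arose.

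The deposited values were peak positions with a signal value relative to a control and an irreproducible discovery rate (IDR), which estimates the share of irreproducible peaks among those at least as strong. Lists passing an IDR of 0.01 held 3187 nuclear peaks from both replicates together, 1191 from replicate 1 alone and 2083 from replicate 2 alone. Signal values rank peaks within 1 list and were not compared in size between lists. Read depth is unknown, and with 1 group no test was run. The intervals given are Wilson intervals at 95%, which reflect counting error alone.

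The sequences below are 150 bp windows centred on summits at 6 lincRNA genes. They were chosen to show a window beside a tRNA gene (linc-44), the window of a strong peak with no other annotated gene close to it (linc-128), a window present in many copies (linc-109), a GA-rich window (linc-151), a window with matches to several motifs (linc-105) and a window that occurs again within the same gene (linc-7). Capitals mark matches on either strand to motifs. These are the tRNA B box GTTCGANNC, an internal promoter element of tRNA genes, the GA repeat GAGAGAGA, the KLF/Sp motif GGGCGG, and the GATA and E-box motifs TGATAA and CACGTG. Overlapping matches run together. A match is a description of the letters and not a site of binding.
linc-44 (II:5782089-5782238, plus strand): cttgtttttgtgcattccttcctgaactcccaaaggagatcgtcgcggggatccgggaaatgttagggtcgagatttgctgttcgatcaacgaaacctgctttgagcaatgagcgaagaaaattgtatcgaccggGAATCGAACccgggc
linc-128 (V:1151415-1151564, plus strand): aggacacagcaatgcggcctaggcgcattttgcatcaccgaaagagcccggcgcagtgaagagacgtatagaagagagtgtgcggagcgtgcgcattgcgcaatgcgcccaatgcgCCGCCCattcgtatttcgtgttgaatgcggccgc
linc-109 (III:10733508-10733657, plus strand): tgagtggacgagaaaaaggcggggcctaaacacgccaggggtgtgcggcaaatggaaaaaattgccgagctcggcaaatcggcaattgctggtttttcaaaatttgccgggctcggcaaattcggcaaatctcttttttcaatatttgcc
linc-151 (IV:11809796-11809945, plus strand): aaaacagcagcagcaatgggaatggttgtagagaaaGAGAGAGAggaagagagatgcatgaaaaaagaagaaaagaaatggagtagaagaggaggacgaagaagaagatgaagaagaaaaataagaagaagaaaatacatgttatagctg
linc-105 (III:10719128-10719277, plus strand): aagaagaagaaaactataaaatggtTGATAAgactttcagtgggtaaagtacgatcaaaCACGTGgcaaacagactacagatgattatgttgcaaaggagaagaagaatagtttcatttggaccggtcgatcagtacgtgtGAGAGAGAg
linc-7, first summit (X:16002871-16003020, plus strand): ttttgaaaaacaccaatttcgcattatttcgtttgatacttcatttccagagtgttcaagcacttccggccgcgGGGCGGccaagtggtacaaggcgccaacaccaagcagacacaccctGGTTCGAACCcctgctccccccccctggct
linc-7, second summit (X:16003507-16003656, plus strand): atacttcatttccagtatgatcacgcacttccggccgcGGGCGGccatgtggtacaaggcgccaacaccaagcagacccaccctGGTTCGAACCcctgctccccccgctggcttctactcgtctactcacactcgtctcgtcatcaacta

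LincRNA genes carried summits about as often as all nuclear genes and as protein-coding genes. The share with a summit was 10.3% of the lincRNA genes (interval 6.77 to 15.4), against 8.79% of the 46696 other nuclear genes and 8.80% of all nuclear genes. The 46696 include 15363 genes for piRNAs, which are very short and of which 0.716% had a summit. Without them the background was 12.8%, and among protein-coding genes it was 11.9%. In the conservative list of the authors 19 lincRNA genes had a summit (9.79%), against 7.84% of other nuclear genes, 7.85% of all nuclear genes, 10.2% of protein-coding genes and 11.4% of all but lincRNA and piRNA genes. In both lists the lincRNA interval spans each of these shares except that of piRNA genes. Of the 19 genes, 18 are among the 20 of the list of both replicates, and the other is M04F3.7. The genes linc-54 and linc-72 had no summit in the conservative list. Without the summits within 500 bp of tRNA, snoRNA or snRNA genes, 18 lincRNA genes had a summit (9.28%, interval 5.95 to 14.2). The shares were then 5.47% of all nuclear genes, which lies below that interval, and 7.90% without lincRNA and piRNA genes and 9.87% of protein-coding genes, which lie inside it. With all summits, the lincRNA share was below those of tRNA genes (82.0%), snRNA genes (43.4%) and snoRNA genes (35.5%), and their intervals do not overlap that of the lincRNA genes. It was close to those of miRNA genes (13.0%) and the class annotated as ncRNA (10.5%). Genes of different length offer windows of different size. The median length was 761 bp for lincRNA genes, 72 bp for tRNA genes and 2027 bp for protein-coding genes.

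**Figure D1:**
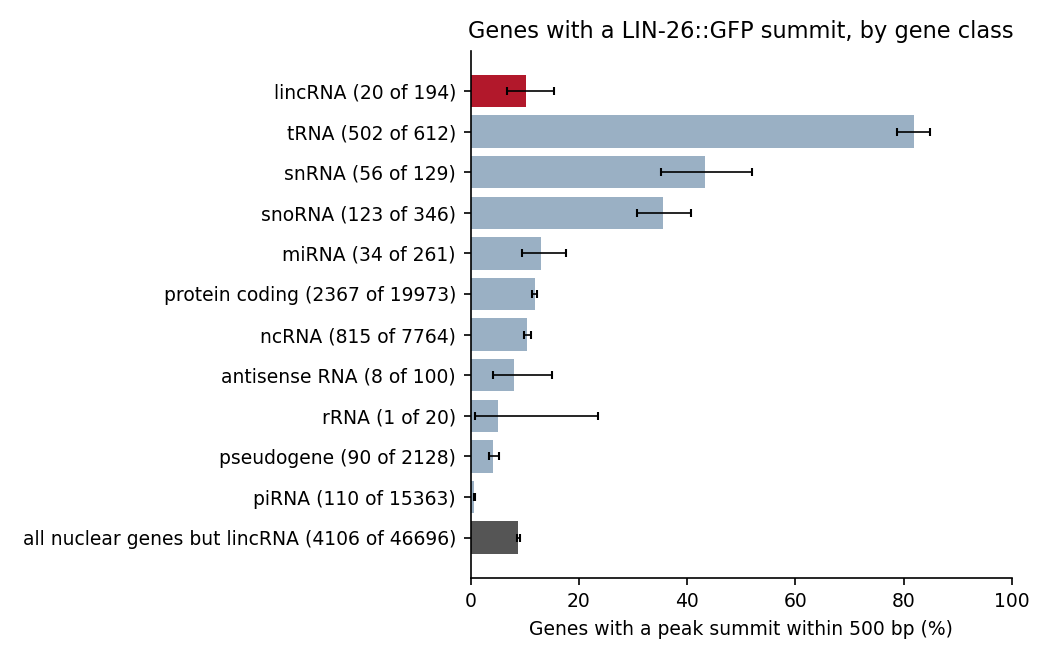
Share of the genes of each annotated class with a LIN-26::GFP summit within 500 bp, in percent, with 95% Wilson intervals as error bars. LincRNA genes (10.3%) sit close to protein-coding genes (11.9%) and far below tRNA genes (82.0%).

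Counted per base, summits were denser around lincRNA genes than over the genome. The lincRNA genes and 500 bp on each side spanned 424871 bp and held 61.2 summits per Mb, against 31.8 per Mb over all nuclear chromosomes. This is not particular to lincRNA genes. Windows drawn the same way held 115 per Mb at miRNA genes and 104 at ncRNA genes. They held 45.6 at antisense RNA genes, 33.3 at protein-coding genes and 18.8 at pseudogenes. Much of the genome lies in coding genes, so the parts outside coding genes were also set side by side. There the lincRNA windows held 20 summits, or 55.0 per Mb, and the rest held 1426, or 38.5 per Mb. The 20 include both summits of linc-105, whose peaks overlap. No interval was computed for the densities outside coding genes, and whether they differ beyond counting error was not tested. Leaving out summits within 500 bp of tRNA, snoRNA or snRNA genes gave 17 summits and 46.8 per Mb in the lincRNA windows, against 29.9 per Mb elsewhere. In the list of replicate 1 alone, the lincRNA windows held 14.1 summits per Mb against 11.9 per Mb over the genome. That was 0.504% of its summits (interval 0.231 to 1.09), which spans the 0.424% of the genome that the windows cover. In the list of replicate 2 alone they held 44.7 against 20.8.

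Peaks at lincRNA genes spread over the whole range of ranks, from 7 to 3057 of 3187. Their median signal was 111 and their range 23.7 to 935, against a median of 112 for the other nuclear peaks. Of the 26 peaks, 12 lay above the median of all nuclear peaks. The 5 strongest were at ranks 7, 144, 189, 395 and 399, and the median rank was 1628. Among all nuclear summits 20.2% lay near a tRNA, snoRNA or snRNA gene, and among the 26 at lincRNA genes 3 did (11.5%).

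The replicates gave unequal numbers of lincRNA genes. The list of replicate 1 alone held a summit at 6 lincRNA genes (3.09%, against 4.51% of other nuclear genes), and that of replicate 2 alone at 16 (8.25%, against 6.56%). The shares of all nuclear genes were 4.50% and 6.56%, those of protein-coding genes 4.87% and 7.96%, and those of genes other than lincRNA and piRNA genes 6.54% and 9.54%, each with replicate 1 before replicate 2. Of the 20 genes in the list of both replicates, 5 had a summit in each replicate's own list, 9 in that of replicate 2 only, 1 in that of replicate 1 only and 5 in neither. The 5 genes found in both were linc-104, linc-44, linc-128, linc-109 and linc-1, which also hold the 5 strongest peaks. The 5 found in neither were linc-131, linc-108, linc-58, linc-143 and linc-150. By peaks, 6 of 26 (23.1%, interval 11.0 to 42.1) overlapped a peak in the list of replicate 1, against 36.1% of the other nuclear peaks. In the list of replicate 2, 17 of 26 did (65.4%, interval 46.2 to 80.6), against 59.3%. Both lists held 5 of the 26 (19.2%, interval 8.51 to 37.9), against 31.0%. Only that of replicate 2 held 12 (46.2%, interval 28.8 to 64.5), against 28.2%, which lies just below that interval. The 12 include both peaks of linc-84, of linc-7 and of linc-105, and those of linc-105 overlap. Only that of replicate 1 held 1 (3.85%), against 5.09%. Neither held 8 (30.8%), against 35.7%.

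In the full ranked lists, both replicates had a peak overlapping every one of the 26. Those lists hold 55940 and 75474 nuclear peaks, and the 26 were called from both replicates. An overlap was therefore likely beforehand. Signal at the matching ranked peak, the overlapping one with the nearest summit, ran from 27.9 to 352 in replicate 1, with a median of 43.8. It ran from 20.6 to 585 in replicate 2, with a median of 68.1. The 2 summits of linc-105 matched the same ranked peak in replicate 1. Matching summits of the replicates lay a median of 27 bp apart, and 23 of the 26 pairs lay within 100 bp. The same counts over the other nuclear peaks are not given here, so these have no background beside them.

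**Figure D2:**
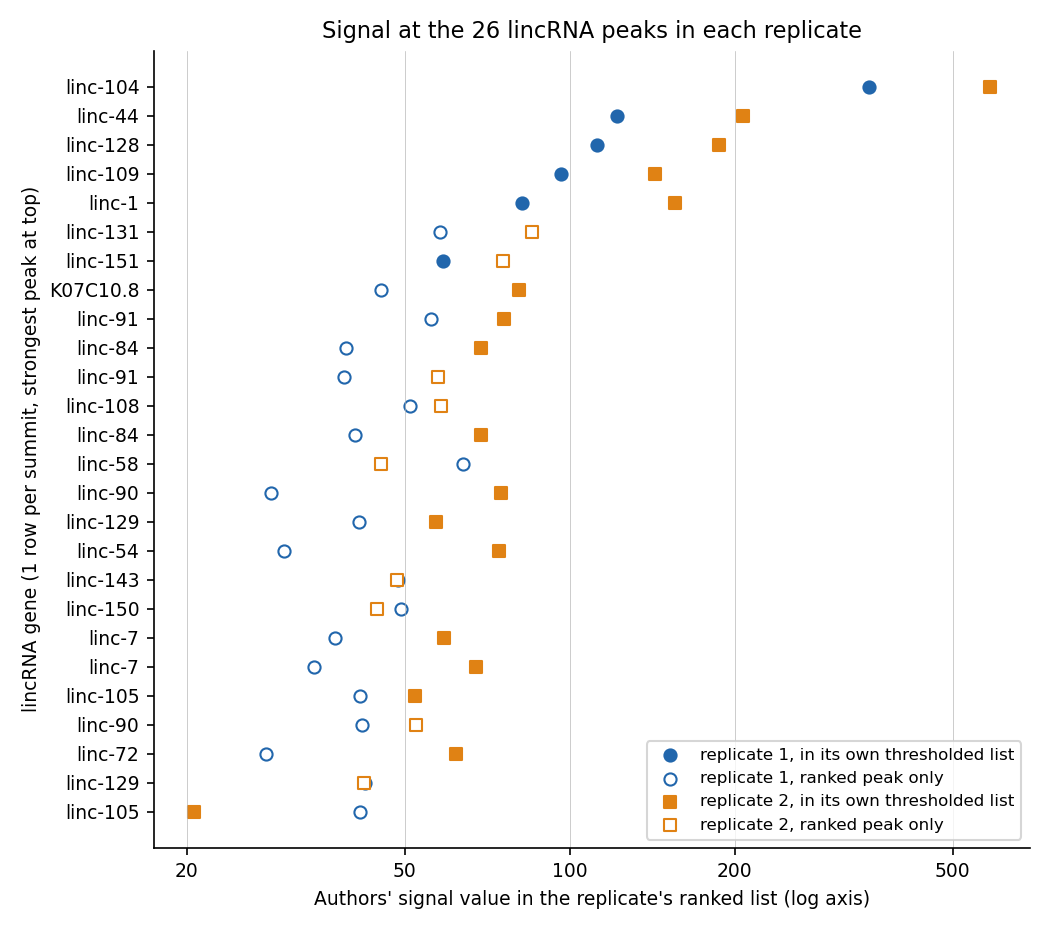
Signal value at the 26 peaks near lincRNA genes in the ranked list of each replicate, on a log axis, with 1 row per summit ordered by signal in the list of both replicates. Filled points passed the threshold in that replicate alone. The first 5 rows are filled in both replicates, and most lower rows are filled in replicate 2 only. Values of the replicates are not on 1 scale.

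The strongest peak stood at linc-104 (WBGene00219721, I:4467346-4467684, minus strand). It lay at I:4466909-4467208 with a signal of 935, rank 7 of the nuclear peaks. Replicate 1 gave 352 there and replicate 2 gave 585, with an IDR of 1e-05 in each. The summit lay 273 bp beyond the 3' end of linc-104. Its nearest coding gene is eri-6, which encodes part of a helicase of the endogenous RNA interference pathway and overlaps linc-104 on the opposite strand. The summit was in an intron of eri-6 and in the promoter window of T01A4.9, which runs from 1000 bp upstream to 200 bp downstream of an annotated 5' end. The window around this summit has 8 other copies in the genome that match at least 80% of the bases over at least 60 bp, the closest at 97.3%. Of its sequences of 31 bases, 29.2% occur elsewhere exactly, and how reads were placed among copies was not tested.

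At linc-44 (WBGene00219675, II:5781921-5782113, minus strand) the peak at II:5782024-5782336 had a signal of 334 and rank 144. Replicate 1 gave 122 and replicate 2 gave 207, both past the threshold. The summit lay 51 bp upstream of the 5' end of linc-44 and 48 bp from the tRNA gene F10C1.t1, and its window holds a B box match. The divergent coding gene K05F1.6 lies 407 bp away, and the summit is in its promoter window. To which of these genes the peak belongs cannot be told apart.

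At linc-128 (WBGene00219734, V:1150906-1153207, plus strand) the peak was narrow, at V:1151444-1151566, with a signal of 312 and rank 189. Replicate 1 gave 112 and replicate 2 gave 187, both past the threshold. The summit lay in the single exon, 584 bp from the 5' end. The closest coding gene, cmd-1, encodes calmodulin and lies 3064 bp away. The nearest tRNA, snoRNA or snRNA gene was 174960 bp away, and no other copy of the window was found. The window was GC-rich (58.7%, against a median of 46.7% over all nuclear summit windows) and holds a KLF/Sp match.

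At linc-109 (WBGene00219615, III:10732273-10736681, minus strand) the peak at III:10733415-10733750 had a signal of 244 and rank 395. Replicate 1 gave 96.4 and replicate 2 gave 143, both past the threshold. The summit lay in an exon, 3098 bp from the 5' end of this 4409 bp gene, the longest of the 20. The coding gene next to linc-109 is smap-1, 212 bp away. The window, printed above with its runs of cggcaaa, had 367 other copies in the genome, and 55.8% of its sequences of 31 bases occur elsewhere exactly. Among all nuclear summit windows 8.72% pass 50% on that measure, and linc-109 was the only one of the 26 to do so.

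At linc-1 (WBGene00194659, I:13652524-13652727, plus strand) the peak at I:13652766-13652912 had a signal of 243 and rank 399. Replicate 1 gave 81.7 and replicate 2 gave 156, both past the threshold. The summit lay 92 bp beyond the 3' end of linc-1. Beside it is rpl-31, which encodes a protein of the large ribosomal subunit and whose 3' end faces that of linc-1 at 222 bp. The summit lay between the 3' ends of both genes and outside promoter windows, and rpl-31 held a separate promoter summit.

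The next peaks had signals from 111 to 147. At linc-131 (I:1696199-1697676) the signal was 147, with 58.0 in replicate 1 and 85.4 in replicate 2, neither past the threshold alone (IDR 0.0605 and 0.143). Its summit lay 348 bp beyond the 3' end, in the promoter window of ubc-3, which encodes a ubiquitin-conjugating enzyme. At linc-151 (IV:11808730-11809673) the signal was 146, with 58.8 in replicate 1 and 75.7 in replicate 2. This was the gene found in replicate 1 only, with an IDR of 0.0064 there and 0.0178 in replicate 2, so both values lay close to the threshold. The summit lay 198 bp beyond its 3' end in a GA-rich window, and the nearest coding gene, M117.1, was 4574 bp away.

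K07C10.8 (II:11166676-11167706) was the only gene of the 20 without a linc- name, and its signal was 142, with 45.3 in replicate 1 and 80.7 in replicate 2, past the threshold in replicate 2 only. Its summit lay in an intron, 12 bp from the snoRNA gene K07C10.2, and the nearest coding gene, the patched-related gene ptr-13, was 4195 bp away. At linc-84 (I:8865945-8866624) there were peaks on both sides of the gene. One, with a signal of 121, lay 360 bp beyond the 3' end and 11 bp from the snoRNA gene F55H12.9, in the promoter window of F55H12.2. Replicate 1 gave 39.1 there and replicate 2 gave 68.8. The other, with a signal of 111, lay 255 bp upstream, in the promoter window of the divergent coding gene F55H12.7, with 40.5 in replicate 1 and 69.0 in replicate 2. Both were past the threshold in replicate 2 only.

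Divergent coding neighbours recurred among these genes. At linc-91 (I:4699610-4702866) a peak of signal 115 lay 98 bp upstream of the 5' end and 937 bp from the 5' end of chd-7, which encodes a chromodomain helicase and is read away from linc-91. Replicate 1 gave 38.7 there (IDR 0.0883) and replicate 2 gave 57.4 (IDR 0.694), neither past the threshold. A second, of signal 123, lay in its exon, 1913 bp from the 5' end, and was past the threshold in replicate 2 (75.9, IDR 0.00245) but not in replicate 1 (55.9, IDR 0.188). At linc-108 (V:15565170-15566425) a peak of signal 112 lay 216 bp upstream, in the promoter window of acs-2, which encodes an acyl-CoA synthetase of fatty acid oxidation. Replicate 1 gave 51.2 there and replicate 2 gave 58.2, neither past the threshold. At linc-58 (I:7952885-7953125) a peak of signal 111 lay 402 bp upstream, in the promoter window of jph-1, which encodes junctophilin. Replicate 1 gave 64.0 and replicate 2 gave 45.2, neither past the threshold.

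The other 8 genes had peaks with signals from 23.7 to 109, none of them past the threshold in replicate 1 alone. At linc-90 both summits (109 and 85.4) lay in its intron and in the promoter window of gei-4, which overlaps it on the opposite strand. The stronger had an IDR of 0.317 in replicate 1 and 0.00195 in replicate 2, and was not in the conservative list. At linc-129, whose nearest coding gene is sca-1, which encodes a calcium pump of the endoplasmic reticulum, both summits (100 and 73.4) lay in an intron. The summit of linc-54 (99.9) lay 263 bp upstream, and its nearest coding gene is M163.1. The peak of linc-54 had an IDR of 0.623 in replicate 1 and 0.00636 in replicate 2, and was not in the conservative list. The summit of linc-143 (96.0) lay in its exon and in an intron of daf-2, the gene for the insulin-like receptor, on the same strand. The summit of linc-150 (95.6) lay 331 bp beyond its 3' end, inside the gene for the miRNA mir-73 and near mir-74, with T24D8.6 as the nearest coding gene. At linc-105, with W09D10.4 as the nearest, one summit (93.2) lay in an intron and one (23.7) in an exon. Their peaks overlap and matched the same ranked peak in replicate 1. In replicate 2 the weaker had a signal of 20.6, rank 36893 of 75474 ranked peaks. Whether the peaks are separate was not tested. The summit of linc-72 (83.5) lay 52 bp beyond its 3' end, in an untranslated part of F46C5.1, which overlaps it on the opposite strand. The peak of linc-72 had an IDR of 0.735 in replicate 1 and 0.00656 in replicate 2, and was not in the conservative list.

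Both summits of linc-7 (X:16002599-16003728) lay in its single exon on copies of the same sequence. Their signals were 94.2 and 93.4, and both were past the threshold in replicate 2 (59.0 and 67.4) but not in replicate 1 (37.3 and 34.2). The stretches X:16002867-16003113 and X:16003469-16003712 align over 247 bp with 91.1% identity, and the summits lie 636 bp apart. Both windows printed above hold a KLF/Sp match followed by a B box match on both strands, although the nearest annotated tRNA, snoRNA or snRNA gene lay at least 39026 bp away. Whether reads were shared between the copies was not tested. The gene lies within an intron of C09G1.4, which is on the opposite strand. This likeness was noticed after the values were seen.

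Few summits lay close to the 5' ends of the lincRNA genes. Of the 26, 6 lay upstream, 13 inside the gene (7 in exons and 6 in introns) and 7 downstream. The median summit was 922 bp downstream of the 5' end, only 2 lay within 100 bp of it and 8 within 500 bp. The share of window bases at these distances is not given here. The 13 inside compare with 55.0% of the bases of the windows that lie inside the genes. Of the 13 inside, 3 lay nearer the 5' end and 10 nearer the 3' end, and exons make up 64.8% of the genes' length. Both summits of linc-90 and both of linc-105 are among the 10. Taking each gene's nearest summit, those just inside the limit of 500 bp were linc-58 at 402 bp, linc-131 at 348 bp and linc-150 at 331 bp. Just outside were M04F3.7 at 566 bp, linc-37 at 574 bp and linc-103 at 771 bp.

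**Figure D3:**
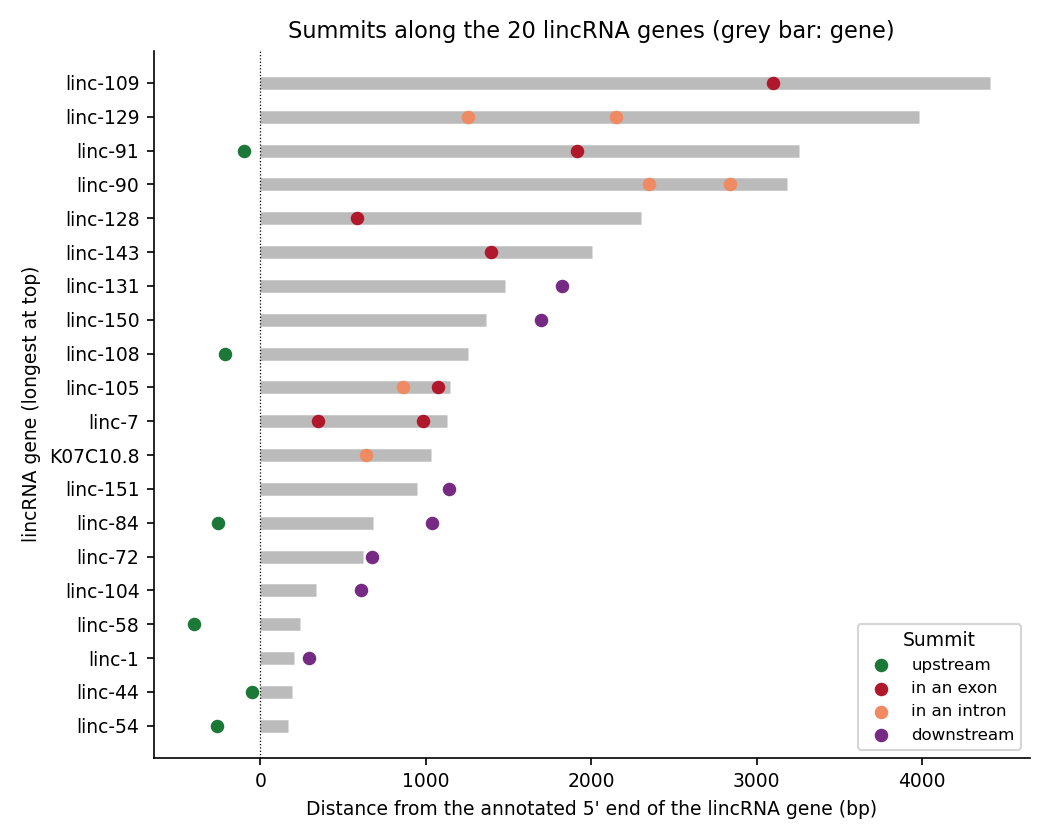
Position of each summit along the 20 lincRNA genes, in bp from the annotated 5' end, with the gene as a grey bar and the longest gene at the top. Of the 26 summits, 13 fall on the bars, 6 to their left and 7 to their right, and only 2 lie within 100 bp of the 5' end.

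Summits at lincRNA genes lay in promoter windows of coding genes about as often as nuclear summits in general. Of the 26 summits, 10 (38.5%) lay in a promoter window of a coding gene, against 39.8% of all nuclear summits. Of the 20 genes, 7 had all their summits in such windows and 13 had at least 1 outside them. A summit lay inside a coding gene in 6 of 26 cases, 5 of them in introns and none in coding sequence. The nearest coding gene had a promoter summit for 10 of the 20 lincRNA genes with a summit and for 8 of the 174 without (4.60%), against 6.66% of all coding genes. In 7 of those 10 pairs it was the same summit that counted for both genes, so the shares are not independent of the rule. The 3 with a separate promoter summit were rpl-31 beside linc-1, smap-1 beside linc-109 and C09G1.4 at linc-7. Divergent neighbours were found for 8 of the 20 with a summit and 41 of the 174 without. With the list of replicate 1 alone, 3 lincRNA genes had a nearest coding gene with a promoter summit, and with that of replicate 2 alone 6 did.

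For 9 of the 26 summits, at 8 genes, there was no promoter window and no coding gene at the summit, and no other non-coding gene within 500 bp. The genes were linc-128, linc-109, linc-1, linc-151, linc-91, linc-129, linc-54 and linc-105. Both summits of linc-105, whose peaks overlap, are among the 9. The share of all nuclear summits that meet the same conditions is not given here. Whether 9 of 26 is many or few therefore cannot be told. At linc-1 the coding neighbour rpl-31 is nonetheless close. Of these 8, linc-128, linc-109 and linc-1 passed the threshold in both replicates.

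Genes with a summit were longer than those without, and lay about as far from coding genes. The median length was 1137 bp for the 20 with a summit and 724 bp for the 174 without, and a longer gene also offers a longer window. The median distance to the nearest coding gene was 543 bp for those with a summit and 638 bp for those without. A coding gene was overlapped by 5 of the 20 (25.0%) and by 37 of the 174 (21.3%).

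By chromosome, the share of lincRNA genes with a summit lay above that of all genes, piRNA genes included, on I, III and IV. It lay below on II, V and X. On chromosome I, 6 of 23 lincRNA genes had a summit (26.1%, interval 12.5 to 46.5), against 15.6% of all genes there. On III it was 5 of 29 (17.2%), against 16.8%. On the others it was 3 of 43 on II (6.98%), 1 of 26 on IV (3.85%), 2 of 35 on V (5.71%) and 3 of 38 on X (7.89%). The shares of all genes were 11.9% on II, 3.61% on IV, 8.32% on V and 13.8% on X. The share of all genes lay inside the lincRNA interval on each of the 6 chromosomes, but these intervals are wide. All genes here include the piRNA genes, which were not taken out by chromosome. Only 0.716% of piRNA genes had a summit. Whether the order on any chromosome, IV included, holds without them was not computed. Chromosome IV alone holds 19704 of the annotated genes.

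**Figure D4:**
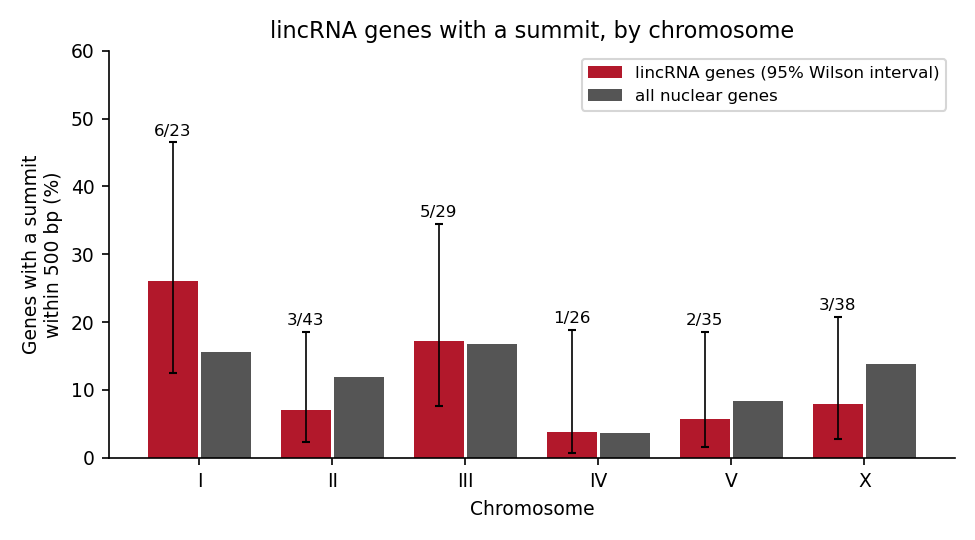
Share of lincRNA genes (with 95% Wilson intervals and counts) and of all nuclear genes with a summit within 500 bp, in percent, by chromosome. The lincRNA share is largest on I (26.1%) and smallest on IV (3.85%), and every interval spans the share of all genes. All genes include the piRNA genes.

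On chromosome III, linc-105, linc-109 and linc-129 lie within III:10718341-10821245, a stretch of 102905 bp that holds no other lincRNA gene. They carried 5 summits, and 17 of all nuclear summits fell in the stretch or within 500 bp of it, or 164 per Mb against 40.8 per Mb over the rest of the chromosome. It is the shortest stretch with 3 lincRNA genes that have a summit, and was picked after the positions were seen. The choice itself put summits at these 3 genes among the 17, and the 164 per Mb counts them.

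Of the 26 windows at lincRNA summits, 13 held a match to at least 1 of 8 motifs. For all nuclear windows the share is given for each motif alone, so the 13 have no background beside them. The GA repeat occurred in 4 of 26 windows (15.4%), at linc-105, linc-151, linc-58 and linc-91, against 4.17% of all 3187 nuclear summit windows. The KLF/Sp motif occurred in 4 (15.4%), at linc-104, linc-128 and both summits of linc-7, against 8.82%. The B box occurred in 3 (11.5%), at linc-44 and both summits of linc-7, against 13.3%. The E-box CACGTG occurred in 2 (at linc-1 and linc-105, 5.68% of all windows), and the E-box CAGCTG in 2 (at linc-129 and linc-84, 4.86%). The EOR-1-like motif GACGCAGA (linc-131), GATA (linc-105) and the E2F motif GCGGGAA (linc-104) occurred in 1 each. The share over all windows lay below the lincRNA interval for the GA repeat (6.15 to 33.5) and inside the interval for each of the other 7 motifs. With 8 motifs and 26 windows, no test was run. The GC content of the 26 windows had a median of 49.4% and ran from 32.7% to 58.7%, against a median of 46.7% over all nuclear windows.

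Of the 174 lincRNA genes without a summit in the list, 97 had a weaker ranked peak within 500 bp and 77 had none. The 97 are 55.7% (interval 48.3 to 62.9), against 46.5% of the other nuclear genes without a summit, 65.8% of those that are not piRNA genes either, and 68.8% of such protein-coding genes. Their best IDR had a median of 0.310. It lay between 0.01 and 0.05 at 8 genes, which were linc-61, linc-96, linc-118, linc-48, Y9D1A.1, linc-167, M04F3.7 and linc-2. The 8 are 4.60% (interval 2.35 to 8.81), against 6.05% of the other nuclear genes without a summit, 9.17% without piRNA genes and 11.1% of protein-coding genes. The lowest was 0.0106 at linc-61, which lies 268 bp from the histone gene his-1. M04F3.7 and linc-37 had a summit in the list of replicate 2 alone (signal 68.6 and 70.7), and M04F3.7 also in the conservative list.

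A further look-up covered lep-5, tts-1 and rncs-1, as examples of long non-coding RNA genes with a described function. Of these, lep-5, which acts in the timing of development, is the only one in the lincRNA class. It had no summit in any thresholded list, and its best ranked peak had an IDR of 0.515 in the list of both replicates, 0.697 in replicate 1 and 0.486 in replicate 2. The gene tts-1, whose RNA associates with ribosomes, is annotated as ncRNA and held 1 summit (signal 132). It was in neither replicate's own list, with an IDR of 0.171 in replicate 1 and 0.0285 in replicate 2. The gene rncs-1, whose RNA inhibits Dicer, is annotated as ncRNA too and had 4 summits within 500 bp, with 1 in the list of replicate 1 and none in that of replicate 2.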

How the data were processed

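LIN-26::GFP was mapped by ChIP-seq in 2 biological replicates of 1 group of whole worms, with chromatin sonicated to 200 to 800 bp, per the labels. The authors deposited 8 peak lists on ce11, ranked or thresholded, from each replicate, from both together and in a conservative version of the joint list. A control alignment entered each of them, per the labels' accompanying text. The peak caller and aligner are not stated in the sources used here. Per the deposited files, signal is each peak's own value, not scaled between lists. The authors' IDR score is a whole number of at least 830 in thresholded lists, which equals an IDR of 0.01. Weaker peaks were described by the −log10 IDR that the authors give. Read counts and depth are unknown.

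Computed here were distances of summits to genes (Ensembl release 115), promoter windows from 29784 annotated 5' ends of coding transcripts, matches to 8 motifs, exact repeats of 31 bases, and other copies by BLAST 2.17.0 (at least 80% identity over 60 bp). Sequence came from the RefSeq copy of WBcel235, the assembly that ce11 names, and every peak lay within its chromosomes. Coordinates count from 1. Counting was tested on simulated data. The members and lists were chosen with earlier results of these data known. All 20 genes with a summit are named, and those with the 12 strongest peaks or with a peak in both replicates' lists with their replicate values; genes with a summit only in another list, and lep-5, tts-1 and rncs-1, are named whatever their values. Alternatives covered lists, IDR, distances, promoter windows and motif windows. Calculations used Python 3.11.15 with pandas 2.3.3, numpy 2.4.6 and scipy 1.17.1, and plots matplotlib 3.10.9.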

Additional observations from a re-analysis of the deposited data

How the results depend on the processing

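Of 48 recomputed values, 32 stayed within 1.5 times a count or within the interval of a share or median, and 16 did not. The replicates alone gave 6 to 16 lincRNA genes with a summit, against 20 in the list of both. They gave 0.504% to 0.912% of summits at lincRNA genes (0.816% in the list of both) and a median rank of peaks at lincRNA genes of 27.1% to 71.6% down their own lists (51.1%). Genes with a summit away from short RNA genes numbered 5 to 13 (18 in the list of both), and those with one outside promoter windows 4 to 11 (13). The nearest coding gene had a promoter summit for 3 to 6 (10), and 4 to 9 windows held a motif match (13). The lower value came from the list of replicate 1 in each of these, which is the shorter one.

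Counting summits inside the gene body gave 9 genes (4.64%, against 5.02% of all nuclear genes) and 0.408% of summits. Without lincRNA and piRNA genes the background was 7.48%, inside the lincRNA interval (2.46 to 8.58). Any overlap of peak and gene gave 11 (5.67%, interval 3.20 to 9.87) and 0.502% of summits. The shares were then 6.69% of all nuclear genes and 8.87% of coding genes, inside that interval. Without lincRNA and piRNA genes the background was 9.90%, just above it. The upper 50% of peaks by signal gave 11 (5.67%, interval 3.20 to 9.87). The shares were then 5.76% of all nuclear genes, 6.63% of coding genes and 8.38% without lincRNA and piRNA genes. Summits outside promoter windows gave 13 (6.70%, interval 3.96 to 11.1), against 5.43%, 6.64% and 7.81% in the same order. All of these shares lie inside the lincRNA interval. Within 250 bp, 68.4% of summits lay inside the gene, as fewer flanking summits are counted. An IDR of 0.005 gave 16 genes (8.25%, interval 5.14 to 13.0). That interval spans 7.44% of all nuclear genes, 9.42% of coding genes and 10.8% without lincRNA and piRNA genes. An IDR of 0.05 gave 28 (14.4%, interval 10.2 to 20.1), against 14.4% of all nuclear genes, 20.8% without lincRNA and piRNA genes and 21.7% of coding genes. No paired analysis was possible because there is only 1 group. Without read counts, a peak that is missing from the list of replicate 1 cannot be told apart from one not detectable at its depth.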
